A study of Mus musculus with 8 samples.

Results

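The genes described here are 34 markers of cortical layers and of the glutamatergic projection neurons that build them, taken by symbol from the 54446 genes of a count matrix. All 34 were found and 33 passed the filter on low counts. The other one, Neurod1, stood at 0 in every library. The samples were 4 from adult mice with a gene trap in both copies of Scn2a (HOM, Scn2a gt/gt, replicates 1 to 4) and 4 from wild-type littermates (WT, replicates 1 to 4), from heterozygous breeding pairs on a strain that the labels spell C75BL6. The protein made from Scn2a is the sodium channel NaV1.2 of excitatory neurons, and a gene trap is DNA put into a gene that cuts its transcript short. The labels restrict the allele to no cell type and give neither the brain region nor the sex. They do not say that each sample came from a separate animal, so the spread that p-values rest on is that between these samples and may be technical.

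The neocortex is built in layers whose excitatory neurons differ in their targets and in the transcription factors that specify them. Upper-layer neurons connect mainly within the cortex and across the hemispheres and are marked by Cux1, Cux2 and Rorb, whereas deep-layer neurons project to the striatum, thalamus, brainstem and spinal cord and carry Fezf2, Bcl11b, Tbr1 and Foxp2. NaV1.2 is found in the axon initial segment and dendrites of such neurons.

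By textbook knowledge of the mouse cortex the members fell into 3 classes. The 8 upper-layer genes were Lamp5, Cux1, Cux2, Rorb, Rspo1, Rasgrf2, Calb1 and Otof. The 14 deep-layer genes were Fezf2, Bcl11b, Foxp2, Tbr1, Tle4, Pcp4, Hs3st4, Nxph4, Cplx3, Rprm, Syt6, Crym, Tshz2 and Deptor. The remaining 12 mark several layers or excitatory neurons at large and were Foxp1, Neurod1, Neurod2, Neurod6, Emx1, Bcl6, Mef2c, Nrgn, Slc30a3, Pou3f1, Lmo3 and Lmo4.

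Libraries held 27993412 to 35339890 counts in HOM and 29053382 to 37538988 counts in WT. Scn2a itself stood at 122, 147, 131 and 112 CPM in HOM replicates 1 to 4 and at 477, 371, 477 and 415 CPM in WT replicates 1 to 4, where CPM are counts relative to library size, scaled by the trimmed mean of M values (TMM). The labels name neurons as the cell type, and glial genes were abundant as well: a list of 8 astrocyte genes, of which Gfap stood at 0, summed to 3812 to 4663 CPM in HOM and 4748 to 5089 CPM in WT. HOM replicate 4 stood apart with 2 counts summed over Uty, Kdm5d, Ddx3y and Eif2s3y, all on the Y chromosome, which held 4452 to 5984 counts in each other library. Choroid plexus genes, a list of 10, summed to 18.8 to 233 CPM in HOM and 146 to 1702 CPM in WT, with the highest sum in WT replicate 4.

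Of the 33 members tested, 3 were lower in HOM, namely Lamp5, Rasgrf2 and Neurod6, and 0 were higher (p under 0.05 in the quasi-likelihood test of edgeR, adjusted by Benjamini-Hochberg over all 17395 genes tested). Over all genes tested, 2.94% passed as lower and 2.47% as higher, 5.4% in all. At an unadjusted p under 0.05 there were 14 members (42.4%), against 22.9% of all genes tested. The members were chosen with results of these data known, and these shares were not matched for level of counts. They are a description, and enrichment was not tested. DESeq2 called 4 members lower and 2 higher, and 1900 of all 17395 genes in either direction, against 940 with edgeR. Lamp5 was the 1 member called lower without WT replicate 3, HOM replicate 1, HOM replicate 3 or HOM replicate 4. The median log2 fold change (HOM over WT) of the 33 members was -0.08, with 20 below 0 and 13 above, against a median of 0.00 and 49.8% below 0 over all genes tested. In bulk samples such as these, fewer cells of a type and less RNA per cell cannot be told apart.

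**Figure D1:**
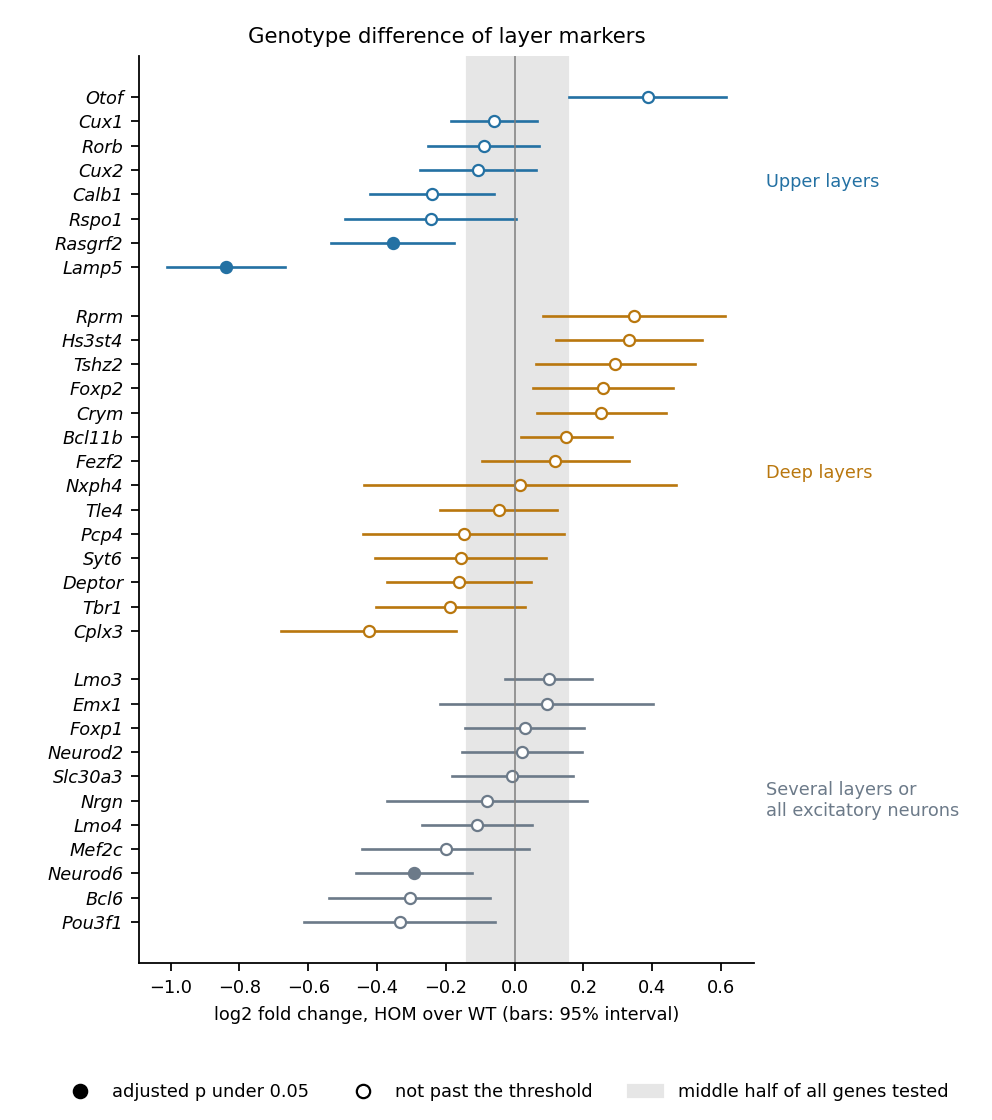
Log2 fold change (HOM over WT, horizontal axis) of the 33 members tested, by class, with 95% intervals from edgeR, filled points for adjusted p under 0.05 and a grey band from -0.14 to 0.15 for the quartiles of all genes tested. Lamp5 lies furthest from 0 at -0.84, and Otof has the highest value at 0.39.

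RefSeq windows around the transcription starts of the 3 lower members are shown so that the sequence at the genes that passed can be read beside their values. Each runs 5′ to 3′ on the gene's strand from 250 bases before the start to 50 after it (build GRCm38.p6). Capitals mark the first transcribed base and any match to a motif searched for. Lamp5 has a pair of starts on the plus strand, with windows chr2:136052089-136052388 and chr2:136057498-136057797. The Rasgrf2 window is chr13:92131779-92132078 on the minus strand, and the Neurod6 window is chr6:55681214-55681513 on the minus strand. The Rasgrf2 window lies wholly beyond the gene span given below, which ends at 92131656. RefSeq and the annotation used for the span thus place the Rasgrf2 start differently.
Lamp5, first start: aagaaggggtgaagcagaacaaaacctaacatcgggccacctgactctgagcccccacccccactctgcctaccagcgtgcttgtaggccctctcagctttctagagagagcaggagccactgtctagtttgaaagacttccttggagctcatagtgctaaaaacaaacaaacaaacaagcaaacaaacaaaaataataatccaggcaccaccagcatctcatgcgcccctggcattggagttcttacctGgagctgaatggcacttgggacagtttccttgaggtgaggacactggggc
Lamp5, second start: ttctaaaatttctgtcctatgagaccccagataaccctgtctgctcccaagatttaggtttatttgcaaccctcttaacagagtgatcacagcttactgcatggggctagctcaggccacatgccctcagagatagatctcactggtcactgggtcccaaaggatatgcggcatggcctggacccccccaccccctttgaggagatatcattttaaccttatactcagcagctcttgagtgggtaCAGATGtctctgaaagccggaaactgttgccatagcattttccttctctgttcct
Rasgrf2: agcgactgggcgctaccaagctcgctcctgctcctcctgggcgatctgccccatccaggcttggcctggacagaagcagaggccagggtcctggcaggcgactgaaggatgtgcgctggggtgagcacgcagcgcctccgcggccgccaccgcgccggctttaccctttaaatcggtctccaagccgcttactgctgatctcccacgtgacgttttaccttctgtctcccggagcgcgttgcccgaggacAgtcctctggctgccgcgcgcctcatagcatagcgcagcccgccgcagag
Neurod6: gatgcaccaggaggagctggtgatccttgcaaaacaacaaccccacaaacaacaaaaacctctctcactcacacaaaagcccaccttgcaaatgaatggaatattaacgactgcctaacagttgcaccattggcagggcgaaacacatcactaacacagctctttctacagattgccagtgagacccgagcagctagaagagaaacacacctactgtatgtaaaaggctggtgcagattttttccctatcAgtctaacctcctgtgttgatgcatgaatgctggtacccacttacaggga

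Both strands were searched for the AP-1 site TGANTCA, the cyclic AMP response element TGACGTCA, the EGR site GCGNGGGCG and the NeuroD E-box CAGATG. These letters can occur in any window, and over all 32851 RefSeq windows of this length 7.81%, 1.79%, 5.55% and 17.2% held them in that order. The windows shown held 1 match, the E-box at bases 246 to 251 of the second Lamp5 window on the plus strand. Of the members, 27 had RefSeq windows, 41 in all since some genes have several starts. Of these 41 windows, 4 held the AP-1 site, 0 the cyclic AMP response element, 8 the EGR site and 5 the E-box. Besides Lamp5, the E-box was at Cux2, Nrgn, Neurod2 and Mef2c, none of which passed the test. A match is a description of letters, not a bound site.

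Lamp5 lies on chromosome 2 from 136052239 to 136069917 (plus strand, GRCm38). It encodes a membrane protein of the lysosome-associated family and marks upper-layer neurons as well as neurogliaform interneurons. Its level was 75.4, 94.0, 80.3 and 85.8 CPM in HOM replicates 1 to 4 and 157, 145, 161 and 138 CPM in WT replicates 1 to 4. Every HOM library lay below every WT library, and the gap between the groups exceeded the range within either. HOM averaged 83.9 ± 7.96 CPM and WT 150.0 ± 10.3 CPM (SD, n = 4 each), which put HOM at 55.9% of WT. The log2 fold change was -0.84 (SE 0.08, 95% interval -1.01 to -0.67, edgeR adjusted p = 0.000309). An exact two-sided permutation test gave p = 0.0286, the smallest that 70 relabellings allow. Without HOM replicate 4, or any other single library, Lamp5 still passed, at log2 fold changes from -0.89 to -0.78.

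Because Lamp5 also marks a class of interneurons, the interneuron list is given beside it. Its 10 genes summed to 992, 1002, 926 and 939 CPM in HOM replicates 1 to 4 and 1066, 1162, 1107 and 1143 CPM in WT replicates 1 to 4, and none was at 0. The genotypes did not overlap in this sum, in which genes of high CPM weigh most. Gene by gene, 2 of the 10, Gad1 and Npy, were lower without overlap, against 7.47% of all genes tested. Of the 10 genes, 9 had a log2 fold change below 0 and 2 passed as lower, against 2.94% of all genes tested. Gad1, which encodes a GABA-synthesising enzyme, averaged 238 ± 18.7 CPM in HOM and 332 ± 13.3 CPM in WT (SD, n = 4; log2 fold change -0.48, edgeR adjusted p = 0.00457). Npy, a neuropeptide gene, averaged 23.1 ± 2.96 CPM in HOM and 33.9 ± 6.81 CPM in WT (SD, n = 4; log2 fold change -0.55, edgeR adjusted p = 0.0348). Npy did not pass without WT replicate 3 (edgeR adjusted p = 0.0778) or without HOM replicate 1, 2 or 3 (0.118, 0.0543 and 0.118). Nor did it pass with the replicate block (edgeR adjusted p = 0.0570) or after fitting the choroid plexus level (0.128, log2 fold change -0.71). Gad1 did not pass after that fit either (edgeR adjusted p = 0.0926), at a log2 fold change of -0.45. The choroid plexus level (mean log2 CPM) was -0.05 to 1.98 in HOM and 1.47 to 4.51 in WT, so it is largely confounded with genotype. A call lost after fitting it, here or below, therefore cannot be assigned to choroid plexus tissue. The part of Gad1 and Npy in the Lamp5 result was not tested.

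Rasgrf2 lies on chromosome 13 from 91880400 to 92131656 (minus strand). It encodes an exchange factor that links calcium to Ras signalling, and it marks layers 2 and 3. It stood at 168, 189, 187 and 161 CPM in HOM replicates 1 to 4 and at 241, 202, 247 and 211 CPM in WT replicates 1 to 4. The groups did not overlap, with HOM replicate 2 and WT replicate 2 closest to each other. Means were 176 ± 13.9 CPM in HOM and 225 ± 21.9 CPM in WT (SD, n = 4), a log2 fold change of -0.35 (SE 0.08, and adjusted p = 0.0321 in edgeR). The call ended without WT replicate 1 or 3 (edgeR adjusted p = 0.0742 and 0.102) and without HOM replicate 1, 3 or 4 (0.114, 0.0783 and 0.0682). It also ended without both replicates 4 (edgeR adjusted p = 0.0754), with the replicate block (0.0592) and after fitting the choroid plexus level (0.115). The log2 fold changes in these fits lay from -0.46 to -0.30.

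**Figure D2:**
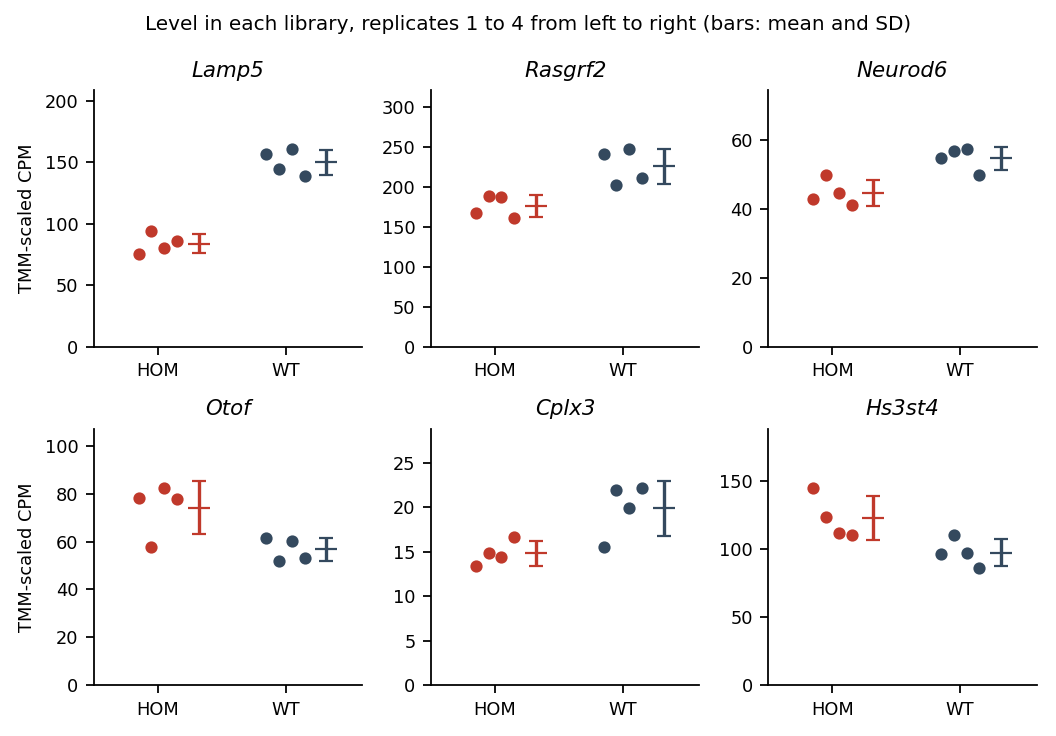
TMM-scaled CPM (vertical axes) of 6 members in each HOM library (left) and each WT library (right), with group mean and SD. Lamp5 and Rasgrf2 do not overlap between genotypes, whereas Neurod6, Otof, Cplx3 and Hs3st4 do.

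The other upper-layer genes lay mostly below WT without passing. Calb1, the gene of the calcium buffer calbindin of layer 2 and 3 neurons and of some interneurons, had 126, 111, 107 and 129.8 CPM in HOM replicates 1 to 4 and 136, 125, 153 and 145 CPM in WT replicates 1 to 4. HOM replicates 1 and 4 lay above WT replicate 2, so the groups overlapped (log2 fold change -0.24, SE 0.08, and adjusted p = 0.109 in edgeR). Rspo1, the gene of a secreted enhancer of Wnt signalling, averaged 7.50 ± 0.336 CPM in HOM and 8.88 ± 1.26 CPM in WT (SD, n = 4), at a log2 fold change of -0.24 with an SE of 0.11 (edgeR adjusted p = 0.225).

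The homeobox genes Cux1 and Cux2 and the nuclear receptor gene Rorb had the smallest differences of the class. Cux1 averaged 91.9 ± 2.97 CPM in HOM and 95.9 ± 3.51 CPM in WT (SD, n = 4), with a log2 fold change of -0.06 and a 95% interval from -0.19 to 0.06. Cux2 averaged 169 ± 4.22 CPM in HOM and 181 ± 19.4 CPM in WT (SD, n = 4), with a log2 fold change of -0.11 and an interval from -0.27 to 0.06. Rorb averaged 66.4 ± 2.11 CPM in HOM and 70.6 ± 6.91 CPM in WT (SD, n = 4), with a log2 fold change of -0.09 and an interval from -0.25 to 0.07. The 3 intervals leave out a difference as large as that of Lamp5. For Cux1, 46.9% of the gene's span is shared with other genes, which makes its count uncertain.

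Otof was the one upper-layer member above WT. It encodes otoferlin, a calcium sensor of vesicle release known from inner hair cells, and labels neurons of layers 2 and 3. Its level was 78.2, 57.9, 82.5 and 77.9 CPM in HOM replicates 1 to 4 and 61.5, 52.0, 60.1 and 53.3 CPM in WT replicates 1 to 4. In HOM, replicates 1, 3 and 4 lay above every WT library and replicate 2 lay within the WT range. Means were 74.1 ± 11.0 CPM in HOM and 56.7 ± 4.78 CPM in WT (SD, n = 4), a log2 fold change of 0.39 (SE 0.10, and adjusted p = 0.0529 in edgeR). Without HOM replicate 2 it passed, at a log2 fold change of 0.50 (edgeR adjusted p = 0.00655).

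Among the deep-layer genes 0 of 14 passed with edgeR, 7 had an unadjusted p under 0.05, and DESeq2 called Hs3st4 and Cplx3. Among the layer 5 regulators, Fezf2, a selector of subcerebral projection neurons, averaged 34.4 ± 2.60 CPM in HOM and 31.7 ± 4.07 CPM in WT (SD, n = 4; log2 fold change 0.12, 95% interval -0.10 to 0.33). Bcl11b, the gene of CTIP2, which acts after Fezf2 and is also strong in the striatum, had 139, 147, 137 and 152 CPM in HOM replicates 1 to 4 and 135, 128, 123 and 132 CPM in WT replicates 1 to 4. The Bcl11b groups did not overlap, by a narrow margin between HOM replicate 3 and WT replicate 1 (log2 fold change 0.15, SE 0.06, adjusted p = 0.163 in edgeR, and p = 0.0286 by an exact two-sided permutation test). The 10 striatal genes beside it summed to 767 to 1124 CPM in HOM and 854 to 973 CPM in WT, 0 of them passed, and 9 of 10 had a log2 fold change above 0. Their part in the Bcl11b values was not tested.

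Of the layer 6 regulators, Foxp2, a forkhead factor of corticothalamic neurons, averaged 35.8 ± 3.13 CPM in HOM and 29.9 ± 3.33 CPM in WT (SD, n = 4; log2 fold change 0.26, edgeR adjusted p = 0.127). Tbr1, a T-box factor that specifies corticothalamic identity, had 128, 162, 159.6 and 143 CPM in HOM replicates 1 to 4 and 182, 167, 185 and 139.7 CPM in WT replicates 1 to 4. WT replicate 4 was the lowest WT library for Tbr1 and lay inside the HOM range (log2 fold change -0.19, 95% interval -0.40 to 0.03). Tle4, a corepressor of the Groucho family, averaged 68.2 ± 6.08 CPM in HOM and 70.4 ± 4.89 CPM in WT (SD, n = 4; log2 fold change -0.05, interval -0.22 to 0.12). The estimates of the 3 layer 6 regulators differed in sign, but none of these genes passed, and the Tbr1 and Tle4 intervals include 0.

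Hs3st4 and Cplx3, 2 further layer 6 markers, lay close to the threshold in opposite directions. Hs3st4, the gene of a heparan sulfate sulfotransferase, had 145, 123, 112 and 110.5 CPM in HOM replicates 1 to 4 and 96.0, 110.6, 96.9 and 86.3 CPM in WT replicates 1 to 4. HOM replicate 4 and WT replicate 2 overlapped by a small margin, and all other HOM libraries lay above all WT libraries (log2 fold change 0.33, SE 0.10, and adjusted p = 0.0661 in edgeR). Without WT replicate 2 it passed (log2 fold change 0.40, edgeR adjusted p = 0.0406), and 25.1% of its span is shared with other genes. Cplx3, a complexin gene of subplate-derived layer 6b neurons and of some interneurons, had 13.4, 14.8, 14.4 and 16.7 CPM in HOM replicates 1 to 4 and 15.5, 22.0, 20.0 and 22.2 CPM in WT replicates 1 to 4. WT replicate 1 was the one WT library within the HOM range (log2 fold change -0.42, SE 0.12, and adjusted p = 0.0550 in edgeR). Without that library Cplx3 passed (log2 fold change -0.53, edgeR adjusted p = 0.0224).

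Rprm, a cell cycle gene that serves as a layer 6 marker, had 70.3, 62.1, 81.0 and 87.5 CPM in HOM replicates 1 to 4 and 52.6, 72.2, 59.6 and 52.4 CPM in WT replicates 1 to 4. WT replicate 2 lay above HOM replicates 1 and 2 (log2 fold change 0.35, SE 0.12, and adjusted p = 0.112 in edgeR). Crym, the gene of the thyroid hormone-binding protein mu-crystallin, averaged 69.3 ± 8.34 CPM in HOM and 58.2 ± 3.40 CPM in WT (SD, n = 4; log2 fold change 0.25, edgeR adjusted p = 0.106). Rprm passed without WT replicate 2, and both Rprm and Crym passed without HOM replicate 2. Tshz2, a zinc finger gene of layer 5 near-projecting neurons, had 26.4, 26.0, 28.2 and 27.7 CPM in HOM replicates 1 to 4 and 23.7, 22.7, 24.97 and 17.1 CPM in WT replicates 1 to 4. The Tshz2 groups did not overlap (log2 fold change 0.29, SE 0.11, and adjusted p = 0.124 in edgeR), and 60.5% of its span is shared with other genes.

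The last 4 deep-layer genes had intervals that include 0. Syt6, the gene of a synaptotagmin, averaged 28.6 ± 4.40 CPM in HOM and 31.8 ± 3.92 CPM in WT (SD, n = 4; log2 fold change -0.16). Deptor, the gene of an mTOR inhibitor enriched in layer 5, averaged 34.8 ± 3.88 CPM in HOM and 38.9 ± 4.04 CPM in WT (SD, n = 4; log2 fold change -0.16). The groups overlapped for both genes. Nxph4, a neurexophilin gene of layer 6b, had the widest spread of the class, at 5.76 ± 1.29 CPM in HOM and 5.71 ± 1.74 CPM in WT (SD, n = 4), and its interval from -0.44 to 0.47 leaves a difference of either sign possible. Pcp4, the gene of a calmodulin-binding peptide, averaged 87.9 ± 13.1 CPM in HOM and 97.5 ± 19.2 CPM in WT (SD, n = 4; log2 fold change -0.15), but 99.6% of its span is shared with Igsf5, so its count is uncertain.

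In non-overlap between groups the members stood as follows. Bcl11b and Tshz2 were higher in all 4 HOM libraries than in any WT library, and Lamp5 and Rasgrf2 lower. That is 4 of 33 members, against 14.1% of all genes tested, 7.47% as lower and 6.63% as higher, so the members' count is near the background.

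Set class against class, the upper-layer genes had a median log2 fold change of -0.17, with 7 of 8 below 0, and the deep-layer genes 0.07, with 8 of 14 above 0. The deep-layer median thus lay 0.24 higher on the log2 scale. With Slc30a3, Pou3f1 and Lmo4 counted as upper and Foxp1, Bcl6 and Lmo3 as deep, that distance was 0.14. Leaving out 1 library at a time gave distances from 0.17 to 0.30, and the deep-layer median itself was 0.00 without WT replicate 4 and after fitting the choroid plexus level. A median as low as the upper-layer one was not particular to that class. A list of 8 genes of excitatory neurons at large had -0.17, with 7 below 0. Hippocampal, thalamic, oligodendrocyte, endothelial and choroid plexus lists had -0.19, -0.22, -0.28, -0.31 and -2.33. Interneuron and astrocyte medians were -0.10 and -0.12, and striatal, microglial and cerebellar ones 0.14, 0.09 and 0.55. The cerebellar median is that of 5 genes tested, whose list had its highest sum in HOM replicate 1 (43.2 CPM).

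By library, the median deviation of the deep-layer genes from their means over all 8 libraries minus that of the upper-layer genes was 0.04, 0.17, 0.11 and 0.10 in HOM replicates 1 to 4 and -0.09, -0.01, -0.22 and -0.10 in WT replicates 1 to 4 (log2 scale). All HOM libraries lay above all WT libraries, with HOM replicate 1 and WT replicate 2 closest. The means were 0.11 ± 0.05 in HOM and -0.11 ± 0.09 in WT (SD, n = 4). These are descriptions, since the members were chosen with results of these data known, and no test was made of them.

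**Figure D3:**
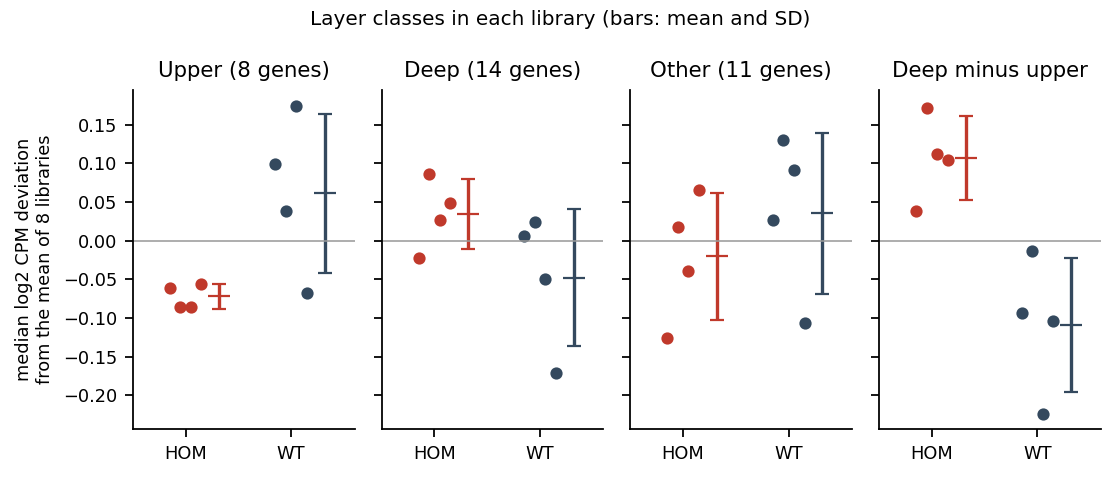
Median deviation (log2 scale, vertical axis) of the upper-layer, deep-layer and other members, and of deep minus upper, in each HOM library (left) and WT library (right), with bars for mean and SD. The deep minus upper difference lies between 0.04 and 0.17 in HOM and between -0.22 and -0.01 in WT.

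Of the genes of several layers, Neurod6 was the one that passed. It lies on chromosome 6 from 55677822 to 55681263 (minus strand) and encodes a basic helix-loop-helix factor kept by mature pyramidal neurons. Its level was 42.9, 49.9, 44.7 and 41.1 CPM in HOM replicates 1 to 4 and 54.9, 56.8, 57.2 and 49.9 CPM in WT replicates 1 to 4. HOM replicate 2 and WT replicate 4 lay at almost the same level, and the groups otherwise were separate. Means were 44.7 ± 3.82 CPM in HOM and 54.7 ± 3.38 CPM in WT (SD, n = 4), a log2 fold change of -0.29 (SE 0.08, adjusted p = 0.0485 in edgeR, and p = 0.0571 by an exact two-sided permutation test). The call rests on the setting: it held with DESeq2 (adjusted p = 0.0119), limma-voom (0.0462) and without HOM replicate 2 (edgeR, 0.0278), and was lost in the other 15 of 18 alternatives, among them RLE scaling (0.0545) and each other single library left out (0.0518 to 0.166).

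Neurod2, Neurod1 and Emx1 are given beside Neurod6. Neurod2, another factor of the NeuroD family, averaged 108 ± 8.00 CPM in HOM and 107 ± 10.3 CPM in WT (SD, n = 4; log2 fold change 0.02, 95% interval -0.15 to 0.20). Neurod1 has no measured value. Its span lies wholly within those of other genes, a position in which 98.5% of protein-coding genes stood at 0, against 13.5% of the others. The cause of its 0 was not tested. Emx1, a homeobox gene of the dorsal telencephalon, averaged 22.8 ± 3.14 CPM in HOM and 21.4 ± 4.67 CPM in WT (SD, n = 4; log2 fold change 0.09). The difference between the Neurod6 and Neurod2 changes was not tested.

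Pou3f1, a POU factor of layer 5 and of callosal neurons, had 21.8, 24.6, 22.6 and 28.4 CPM in HOM replicates 1 to 4 and 28.4, 38.8, 30.6 and 25.2 CPM in WT replicates 1 to 4. WT replicates 1 and 4 lay within the HOM range (log2 fold change -0.33, SE 0.13, and adjusted p = 0.142 in edgeR). Bcl6, a transcriptional repressor that drives cortical neurogenesis, had 23.7, 32.2, 29.9 and 27.5 CPM in HOM replicates 1 to 4 and 31.9, 33.0, 41.1 and 33.9 CPM in WT replicates 1 to 4. HOM replicate 2 and WT replicate 1 overlapped by a small margin (log2 fold change -0.31, SE 0.11, and adjusted p = 0.113 in edgeR).

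The members with the highest CPM were Nrgn and Mef2c. Nrgn, the gene of neurogranin, a postsynaptic calmodulin-binding protein, had 1072, 1020.4, 1089.8 and 1417 CPM in HOM replicates 1 to 4 and 1061, 1567, 1186 and 1049 CPM in WT replicates 1 to 4. HOM replicate 4 and WT replicate 2 were each the high library of their group (log2 fold change -0.08, 95% interval -0.37 to 0.21). Mef2c, an activity-regulated factor of excitatory neurons, averaged 653 ± 70.5 CPM in HOM and 749.8 ± 119.8 CPM in WT (SD, n = 4; log2 fold change -0.20, edgeR adjusted p = 0.305). These levels are not corrected for gene length and do not rank the genes by molecules.

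The remaining members were close to WT. Slc30a3, the gene of the synaptic vesicle zinc transporter ZnT3, averaged 134 ± 13.98 CPM in HOM and 135 ± 9.04 CPM in WT (SD, n = 4; log2 fold change -0.01, 95% interval -0.18 to 0.17). Foxp1, a forkhead factor of layers 3 to 6 and of the striatum, had a log2 fold change of 0.03, and 44.4% of its span is shared with other genes. The LIM-only genes Lmo3 and Lmo4 had log2 fold changes of 0.10 and -0.11, and neither passed.

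**Figure D4:**
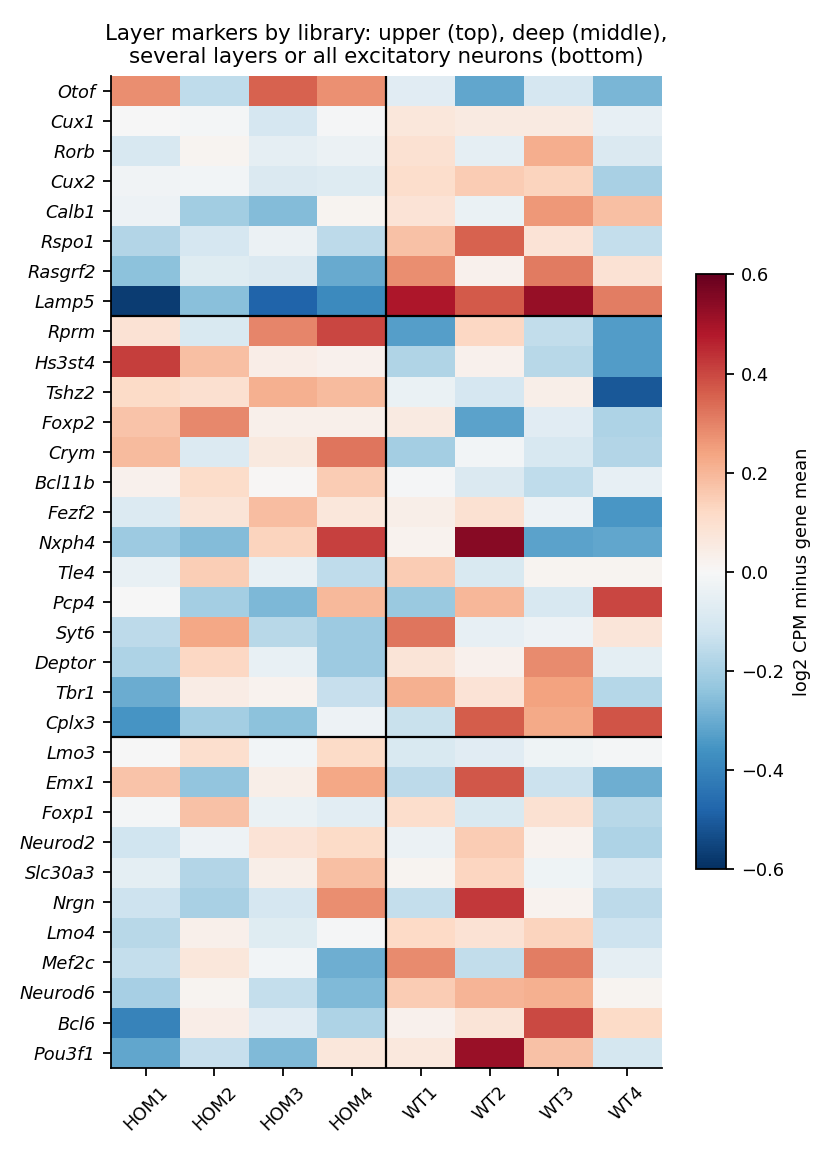
Heat map of each member's deviation from its mean over the 8 libraries (log2 CPM, colour), with members as rows grouped by class and HOM libraries left of WT libraries. Lamp5, at 75.4 to 94.0 CPM in HOM and 138 to 161 CPM in WT, shows a full split between genotypes, whereas 12 of the 14 deep-layer rows overlap.

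Further layer genes that are not among the 34 were counted in the same fit. Of 12 further upper-layer genes, 11 were tested, 2 were higher in HOM and 1 lower, with a median log2 fold change of -0.07. Adamts2, the gene of a procollagen protease, averaged 33.4 ± 2.48 CPM in HOM and 20.3 ± 0.749 CPM in WT (SD, n = 4; log2 fold change 0.72, edgeR adjusted p = 0.000767). Mdga1, an adhesion gene of layer 2 and 3 neurons, averaged 54.3 ± 3.73 CPM in HOM and 34.7 ± 1.33 CPM in WT (SD, n = 4; log2 fold change 0.65, edgeR adjusted p = 0.000872). Both thus moved against the direction of Lamp5 and Rasgrf2. Agmat, at 0.519 ± 0.0697 CPM in HOM and 1.44 ± 0.168 CPM in WT (SD, n = 4), was the lower one (log2 fold change -1.47, edgeR adjusted p = 0.00613). After fitting the choroid plexus level its log2 fold change was -1.48 (edgeR adjusted p = 0.0797).

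Of 18 further deep-layer genes, all tested, 2 were higher in HOM and 0 lower, with a median log2 fold change of 0.21. Ntsr1, the neurotensin receptor gene of layer 6 corticothalamic neurons, averaged 27.2 ± 2.63 CPM in HOM and 15.1 ± 0.977 CPM in WT (SD, n = 4; log2 fold change 0.85, edgeR adjusted p = 0.000767). Moxd1, the gene of a monooxygenase, averaged 11.3 ± 0.335 CPM in HOM and 8.74 ± 0.524 CPM in WT (SD, n = 4; log2 fold change 0.37, edgeR adjusted p = 0.0316). It did not pass without WT replicate 1 or 3, without HOM replicate 1, 3 or 4 (edgeR adjusted p at most 0.0913), without both replicates 4 (0.0695) or after fitting the choroid plexus level (0.184), at log2 fold changes from 0.34 to 0.41. In both sets of lists the deep-layer median was the higher one, and upper-layer genes went both ways. The further lists too were chosen with results of these data known, so they are a description and not independent support.

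Other cell types were measured beside these genes. The 8 genes of excitatory neurons at large, of which Neurod2, Tbr1 and Slc30a3 are members too, summed to 5257 to 5871 CPM in HOM and 6001 to 6707 CPM in WT, and 1 of 8 passed as lower, Sv2b (log2 fold change -0.32, adjusted p = 0.0461 in edgeR). The Sv2b call was lost in 11 of 18 alternatives, among them the fits without WT replicate 1, 3 or 4 (edgeR adjusted p = 0.0999, 0.141 and 0.0548) and without HOM replicate 1, 3 or 4 (0.149, 0.130 and 0.103), and over all 18 its log2 fold change lay between -0.46 and -0.27. The 8 oligodendrocyte genes summed to 3199 to 3912 CPM in HOM and 3713 to 5566 CPM in WT with 0 passing. The 10 hippocampal genes summed to 179 to 217 CPM in HOM and 212 to 258 CPM in WT, and 1 passed as lower, Fibcd1. The 7 thalamic genes summed to 320 to 389 CPM in HOM and 292 to 392.2 CPM in WT with 0 passing. WT replicate 4 held the highest WT sum, and WT replicates 1 to 3, at 292 to 301 CPM, lay below every HOM library. Of the genes tested in the other lists, 1 of 7 astrocyte genes (Aqp4), 1 of 8 endothelial genes (Flt1) and 1 of 9 choroid plexus genes (Kl) were lower, 1 of 7 microglial genes (C1qa) was higher, and 0 of 5 cerebellar genes passed. The cerebellar list summed to 43.2 CPM in HOM replicate 1 and 37.7 CPM in WT replicate 4, against 18.3 to 23.0 CPM in each other library. The part of these differences in the members' values was not tested.

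**Figure D5:**
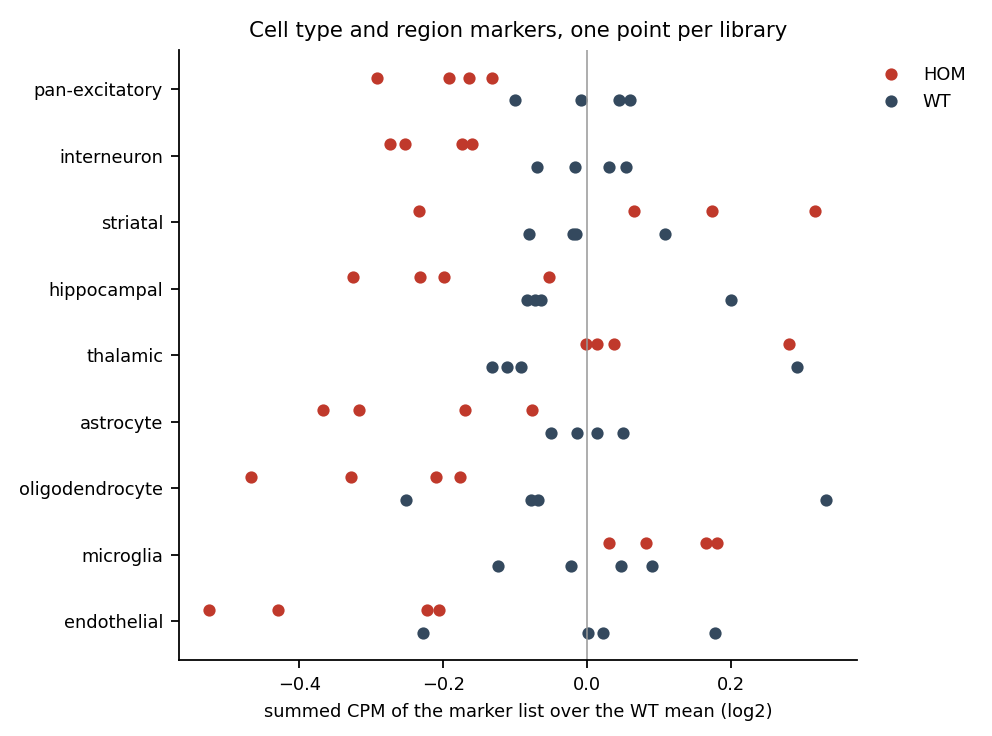
Summed CPM of 9 marker lists of cell types and brain regions over the WT mean of the list (log2, horizontal axis), with 1 point per library, HOM drawn above WT. The interneuron, astrocyte and pan-excitatory sums do not overlap between genotypes, whereas the striatal and thalamic sums do, the thalamic ones through WT replicate 4. Genes of high CPM weigh most in a sum. Gene by gene, 2 of 10 interneuron, 2 of 7 astrocyte and 2 of 8 pan-excitatory genes tested were lower without overlap, against 7.47% of all genes tested.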

How the data were processed

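RNA of 4 HOM and 4 WT samples was sequenced from stranded paired-end libraries, per the labels' protocols. The file the authors deposited holds raw counts by Ensembl gene ID, not normalized. FastQC 0.11.3, STAR, featureCounts, edgeR and the build GRCm38 are named, per the submitters' processing notes. Other versions, the gene annotation and strandedness in counting were not given in the sources used here.

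Symbols and positions came from GENCODE mouse release 21, which held 54409 of the 54446 genes. Protein-coding genes lying wholly within other genes stood at 0 in 1261 of 1280 cases, against 2784 of 20638 others, so such genes have no usable value. The test used was that of edgeR 4.0.16 under R 4.3.3 (quasi-likelihood F test, TMM scaling, filterByExpr with a minimum of 10 counts in 4 libraries, Benjamini-Hochberg threshold 0.05 over 17395 genes). Single genes were also compared by an exact two-sided permutation test over 70 relabellings, on log2 CPM with a prior count of 2. The 2 libraries of every pair within a genotype differed by more than sampling noise (lowest chi-square per degree of freedom 7.03). The fits were tested on simulated data. DESeq2 made more false calls there than its adjusted threshold allows, and its limit in that test was widened after this was seen. Its calls are therefore given as an alternative only. Alternatives were RLE and upper-quartile scaling, 2 filters, DESeq2 1.42.0, limma-voom 3.58.1, the replicate block, a choroid plexus covariate, removal of a trend with gene span (mgcv 1.9.3), and leaving out libraries.

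The members, classes and lists were chosen with earlier results of these data known. The text names all 34 members, and of the other lists those that passed, up to 4 each. Promoter sequences are RefSeq's (GRCm38.p6). 1 symbol was matched through a synonym.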

Additional observations from a re-analysis of the deposited data

Results flagged for a closer look

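Within single groups, 4 values stood far from the other 3 libraries by Dixon's test, which flags about 1 in 20 groups by chance. Cux1 was at 87.5 CPM in HOM replicate 3, with the nearest HOM library at 93.1 CPM, and at 90.7 CPM in WT replicate 4, with the nearest WT library at 97.3 CPM. Cux2 was at 153 CPM in WT replicate 4, with the nearest WT library at 188 CPM. Syt6 was at 35.2 CPM in HOM replicate 2, with the nearest HOM library at 26.8 CPM.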

How the results depend on the processing

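The number of genes called was 940, and it was 1900 with DESeq2, 1620 with the span trend removed, 335 without both replicates 4, 67 after fitting the choroid plexus level, and 180 to 1187 with 1 library left out. Members called higher numbered 0, and 1 with upper-quartile scaling and with a filter of 1 CPM (Otof in both), 2 with no filter and with DESeq2 (Otof and Hs3st4 in both), 2 with the span trend removed (Otof and Rprm), and 0 to 3 with 1 library left out. Members called lower numbered 3, and 1 (Lamp5) without both replicates 4 and with the choroid plexus covariate, and 1 to 3 with 1 library left out. Replicate numbers did not pair the samples (correlations of 0.05, -0.20, -0.01 and 0.03), and with the replicate block 364 genes and 1 member (Lamp5) were called. The deep minus upper distance was 0.24, 0.14 with the wider classes, and 0.17 to 0.30 with 1 library left out. Members near 0 changed sign: Slc30a3 to 0.0253 (upper-quartile), 0.00136 (no filter) and 0.0099 (1 CPM filter); without both replicates 4, Nxph4 to -0.23, Neurod2 to -0.0623 and Emx1 to -0.0397; with the choroid plexus covariate, Fezf2 to -0.10, Pcp4 to 0.0847, Nxph4 to -0.22, Foxp1 to -0.10 and Neurod2 to -0.15; with the span trend removed, Foxp1 to -0.11 and Neurod2 to -0.0152. With 1 library left out the log2 fold changes ran from -0.18 to 0.0656 for Nrgn, -0.0555 to 0.0557 for Slc30a3, -0.12 to 0.24 for Nxph4, -0.0203 to 0.0727 for Foxp1, -0.0344 to 0.0782 for Neurod2 and -0.096 to 0.0126 for Tle4. The causes were not tested. Lamp5 passed in all 18 alternatives. The lowest counts were those of Nxph4, at 125 to 263 per library, which limits its precision.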
